A study of Mus musculus with 8 samples.

Results

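In the colonic biopsies of 8 chimeric mice, 28 genes varied together, *Pbsn* among them. *Pbsn* is the gene of probasin, a lipocalin that the prostate epithelium secretes. The 28 genes were chosen by their values. Each had a mean of at least 10 normalized counts over the 8 libraries and a Pearson r of at least 0.9 with *Pbsn* on log2(normalized count + 1). Its mean in the penk-/- replicate 3 and penk+/+ replicate 4 libraries (the high pair) was also at least 8 times 1 plus its mean in the penk-/- replicate 1 and penk+/+ replicate 3 libraries (the low pair). Of 26008 genes in the table, 19127 met the first condition and 28 met all of them. They comprised 22 protein-coding genes, 5 long non-coding RNAs and 1 processed pseudogene. *Egf*, *Derl3* and the immunoglobulin, xenobiotic enzyme and collagen symbols were set aside by the rule, which removed 0 genes that had otherwise qualified. The shared course of the 28 genes over the libraries was therefore fixed by the choice and is given here as a description without a test. The donor genotypes were compared with a test. The high pair and the low pair each hold 1 mouse of each genotype, so that the choice also tied the 28 genes to the nearly balanced genotype means of *Pbsn*, and the comparison is not independent of it.

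The recipients were irradiated male wild-type C57BL/6JRj mice that were 7 weeks old at the graft. They received bone marrow of male penk-/- donors, which lack proenkephalin (the precursor of enkephalins), or of male penk+/+ donors, and were examined 18 weeks later. In either group the deletion or its absence thus concerned cells derived from the graft, while the epithelium, the muscle and any gland at the biopsy were those of the wild-type recipient. Each of the 4 penk-/- and 4 penk+/+ chimeras gave 1 poly-A RNA library, with a depth of 33.1 M to 50.7 M reads counted on genes. The deposited normalized counts are read counts divided by a size factor of each library.

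The prostate and the seminal vesicles, the accessory glands of the male tract, secrete most of the fluid of the ejaculate. In rodents the prostate surrounds the urethra and lies close to the rectum. Its luminal cells depend on androgens and make large amounts of a few secreted proteins, among them probasin and the transglutaminase TGM4, which crosslinks the copulatory plug. The basal cells beneath the luminal layer carry KRT5 and TRP63. The *Pbsn* promoter is widely used to drive transgenes in the prostate, because it responds to androgens.

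The promoter windows below, read from GRCm39 and running from 250 bases before to 50 bases after the annotated start, are shown for *Pbsn* itself, for the most abundant gene that followed it, and for 3 others with a motif. They are written 5′ to 3′ on the strand of the gene. Capitals mark TGTTCT, the core of sites bound by steroid hormone receptors, on either strand (AGAACA is its reverse complement), and TATAAA on the gene's strand beginning 45 to 15 bases before the start. The window of *Pbsn* is chrX:76897180-76897479 (minus strand), that of *Fcgbpl1* chr7:27828641-27828940 (plus), that of *9530002B09Rik* chr4:122582818-122583117 (plus), that of *Tgm4* chr9:122863541-122863840 (plus) and that of *Mmp7* chr9:7691841-7692140 (plus).
Pbsn: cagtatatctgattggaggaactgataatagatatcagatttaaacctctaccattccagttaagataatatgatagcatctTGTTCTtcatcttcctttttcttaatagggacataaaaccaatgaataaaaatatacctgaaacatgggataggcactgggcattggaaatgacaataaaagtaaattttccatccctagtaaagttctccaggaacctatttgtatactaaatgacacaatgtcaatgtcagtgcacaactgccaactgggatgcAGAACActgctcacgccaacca
Fcgbpl1: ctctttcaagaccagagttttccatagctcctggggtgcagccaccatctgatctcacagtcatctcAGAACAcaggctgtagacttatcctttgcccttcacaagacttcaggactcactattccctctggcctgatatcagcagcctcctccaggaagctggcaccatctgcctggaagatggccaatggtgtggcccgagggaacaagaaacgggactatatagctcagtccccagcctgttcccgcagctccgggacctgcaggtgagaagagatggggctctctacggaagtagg
9530002B09Rik: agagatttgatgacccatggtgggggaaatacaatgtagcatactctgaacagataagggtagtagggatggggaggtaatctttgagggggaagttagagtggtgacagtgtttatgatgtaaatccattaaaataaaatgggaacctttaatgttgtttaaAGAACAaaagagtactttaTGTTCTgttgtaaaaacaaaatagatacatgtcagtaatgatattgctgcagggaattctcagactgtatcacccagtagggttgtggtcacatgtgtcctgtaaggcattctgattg
Tgm4: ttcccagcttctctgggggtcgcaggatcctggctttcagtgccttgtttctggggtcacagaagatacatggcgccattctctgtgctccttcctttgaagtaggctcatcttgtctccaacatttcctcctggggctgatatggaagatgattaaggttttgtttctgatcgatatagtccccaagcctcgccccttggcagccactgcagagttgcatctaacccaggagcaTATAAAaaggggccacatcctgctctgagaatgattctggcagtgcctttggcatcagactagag
Mmp7: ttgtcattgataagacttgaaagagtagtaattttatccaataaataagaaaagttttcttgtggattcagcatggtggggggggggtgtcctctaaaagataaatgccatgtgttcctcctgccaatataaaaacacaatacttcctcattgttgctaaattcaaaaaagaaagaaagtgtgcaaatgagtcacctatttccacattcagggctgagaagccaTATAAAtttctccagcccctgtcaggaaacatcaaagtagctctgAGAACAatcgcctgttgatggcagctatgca

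In the window of *Pbsn*, a TGTTCT began 168 bases before the start and an AGAACA lay downstream of it. In that of *9530002B09Rik*, AGAACA and TGTTCT began 87 and 68 bases before the start, and in that of *Fcgbpl1* AGAACA began 183 bases before it. *Glb1l3* (99 bases before the start) and *Defb1* (207 bases before it) also had one, and *Mmp7* had one downstream of its start, so that 6 of the 28 windows (21.4%) held TGTTCT on either strand. The share was 15.1% of the 19039 windows of all genes tested. Among protein-coding genes it was 6 of 22 (27.3%) against 13.6% of 15168. The palindrome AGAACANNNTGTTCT was found in 0 of the 28 windows and in 0 of the 19039. TATAAA was found in 4 of 28 windows (14.3%), those of *Mmp7*, *Tgm4*, *Defb50* and *Gm35439*, against 1.37% of the windows of all genes tested. These matches are letters in a window and not measured binding.

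The gene with the most normalized counts was *Fcgbpl1* (ENSMUSG00000078776, chromosome 7, 27828891 to 27864236, plus strand), a relative of *Fcgbp*, which codes for the IgG Fc-binding protein that goblet cells release with mucus. *Fcgbpl1* had 5.05, 78268, 863731 and 45885 normalized counts in penk-/- replicates 1 to 4, and 101106, 17775, 2.04 and 980824 in penk+/+ replicates 1 to 4. It took more counts than any other gene in penk-/- replicate 3 and ranked 2 in penk+/+ replicate 4, whereas it ranked 20605 and 23013 in penk-/- replicate 1 and penk+/+ replicate 3. The high pair had on average 260050 times the normalized counts of the low pair, in which 7 reads were counted. *Fcgbp* itself ranged from 104542 normalized counts in penk-/- replicate 3 to 149834 in penk+/+ replicate 1, with an r of -0.58 to *Pbsn*. It was chosen for comparison after its values were seen, as were the other relatives named here. How reads that fit both genes were shared is not given in the sources used here.

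*Pbsn* (ENSMUSG00000000003, chromosome X, 76881506 to 76897229, minus strand) had 0, 7638, 105658 and 4803 normalized counts in penk-/- replicates 1 to 4, and 13425, 2398, 0 and 111024 in penk+/+ replicates 1 to 4. The mice thus fell into a high pair with 1 of each genotype, 4 mice in between and a low pair with 1 of each genotype. The low pair had no read of *Pbsn*. Set against a floor of 3 reads over both libraries, the high pair was at least 71095-fold higher. Per kb of exon the order of the leading genes changed. *Pbsn* had 117762 normalized counts per kb in the high pair, *Fcgbpl1* 77875, *Tgm4* 23107, *9530002B09Rik* 19685 and *Tcaf3* 12812. The exons of *Fcgbpl1* span 11843 bases and those of *Pbsn* 920.

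**Figure D1:**
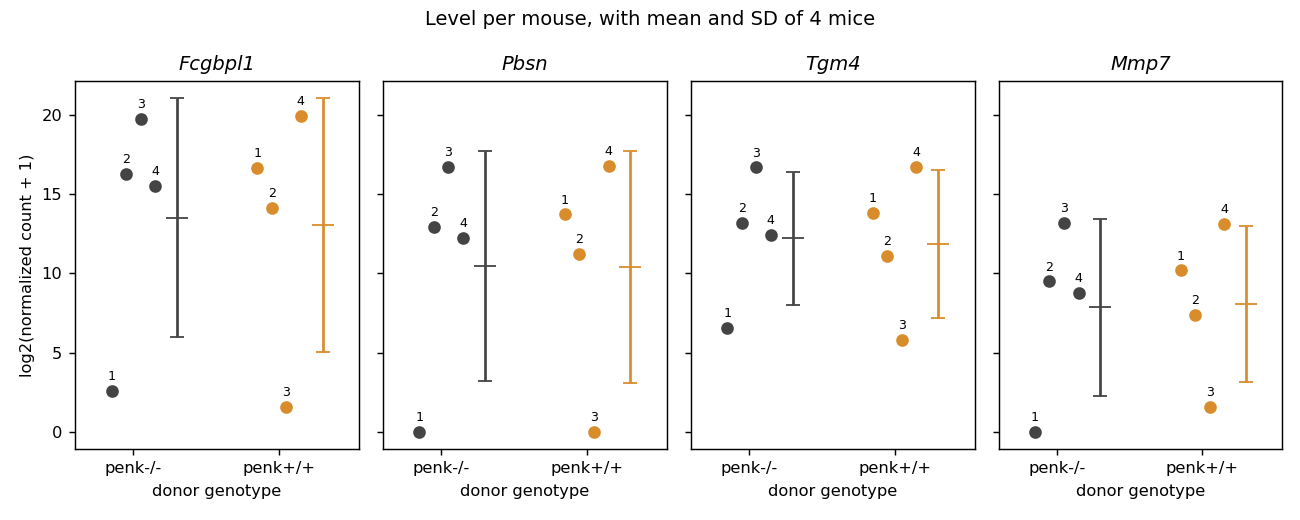
Level of 4 of the genes in each mouse by donor genotype, as log2(normalized count + 1), with the replicate number above each point and the mean and SD of the 4 mice beside the points. In both genotypes 1 mouse was far below the other 3, and *Tgm4* did not fall to 0 in it (93.9 and 54.2 normalized counts).

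*Tgm4* (ENSMUSG00000025787, chromosome 9, 122863791 to 122896626, plus strand) had 93.9, 9323, 104034 and 5408 normalized counts in penk-/- replicates 1 to 4, and 14069.8, 2228, 54.2 and 106655 in penk+/+ replicates 1 to 4. Unlike *Pbsn* it was read in the low pair, and the high pair was 1423 times as high. The transglutaminase genes *Tgm3* and *Tgm2* did not share this course. *Tgm3*, an epithelial transglutaminase, had 62347 normalized counts in penk-/- replicate 3 and 121743 in penk+/+ replicate 4, against 78618 to 134125 elsewhere, and *Tgm2*, the ubiquitous one, ranged from 1553 to 2709 over the other 6 libraries with 2700.2 and 2029 in the high pair.

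Of the transcription factors, *Sp8*, a zinc finger factor, had 0, 8.01, 262 and 15.5 normalized counts in penk-/- and 24.9, 4.75, 0 and 310.4 in penk+/+ replicates 1 to 4. *Tfap2a*, an epithelial factor of the AP-2 family, reached 101.0 and 89.2 in the high pair against 1.01 to 21.2 in the other 6 libraries. Its relative *Tfap2c* had 68.3 and 68.6 against 0 to 11.2 (r = 0.741). *Gata3os*, a non-coding RNA opposite to *Gata3*, had 203 and 214 normalized counts in the high pair, at most 38.6 elsewhere and 0 in the low pair. *Gata3*, a factor of T cells and of several glandular epithelia, was 727 and 689 in the high pair and 5.05 to 94.6 elsewhere, with an r of 0.886 that left it just outside the rule. The paper states that the libraries were prepared with a stranded mRNA kit. The strand setting of the counting is not given in the sources used here, so that reads of *Gata3* and *Gata3os* may have been shared.

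A group of genes codes for small secreted or host defence proteins. *Pate9* and *Pate14* belong to a family of small cysteine-rich proteins of the male tract. *Pate9* had 0, 1248, 15444 and 727 normalized counts in penk-/- and 1989, 382, 0 and 16571 in penk+/+ replicates 1 to 4, and *Pate14* reached 409 and 376 in the high pair and 0 in the low pair. The beta-defensins *Defb50* (1141 and 1099 in the high pair) and *Defb1* (755 and 797) were at 0 in both libraries of the low pair and at 15.2 to 156 and 15.2 to 126 in the 4 mice in between. *Defb45* ranged from 204 to 316 over all libraries, whereas *Defb42* had 40.0 and 27.4 in the high pair against 1.02 to 9.94 elsewhere (r = 0.815). *Rnase1*, a secreted ribonuclease, reached 2837 and 2837 in the high pair and was still at 11.1 and 19.4 in the low pair, and *Rnase4* stayed between 3255 and 3981 in all libraries. *Fgl1* (fibrinogen-like) reached 3864 and 3998 and *Apof* (an apolipoprotein) 553 and 484 in the high pair.

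The proteases were *Mmp7*, *C1rb* and *C1s2*. *Mmp7* codes for matrilysin, a matrix metalloproteinase of glandular epithelia, and had 0, 718, 9129 and 431 normalized counts in penk-/- and 1162, 167, 2.04 and 8712 in penk+/+ replicates 1 to 4. *Mmp8*, the gene of a neutrophil collagenase, had 29.1 and 34.3 in the high pair against 0 to 3.43 elsewhere (r = 0.856), and *Mmp15* ranged from 4869.9 to 6840.1 over the 8 libraries. *C1rb* and *C1s2* are extra mouse copies of the genes of the complement proteases C1r and C1s. *C1rb* reached 11989 and 13595 in the high pair with 1.01 and 2.04 in the low pair, and *C1s2* 3768 and 3742 with 3.03 and 4.09. Their nearest relatives held a steady level, *C1ra* from 1060.4 to 1813 and *C1s1* from 1655 to 2954 over the 8 libraries. *C1s1* overlaps *C1rb* on the opposite strand.

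Among the remaining coding genes, *Tcaf3*, which codes for a factor associated with the TRPM8 channel, had 0, 3468, 42174 and 2129 normalized counts in penk-/- and 7498, 898, 0 and 52426 in penk+/+ replicates 1 to 4. Its relative *Tcaf2* also was highest in the high pair (9712 and 9639) but at 1419.8 to 2357 in the other 6 libraries, with an r of 0.711, while *Tcaf1* ranged from 1482 to 2306. *Glb1l3*, a beta-galactosidase-like gene, reached 4804 and 5369 and was at 0 in the low pair. Its relative *Glb1l2* reached 1800.4 and 1904 against 62.6 to 252 elsewhere. *9530002B09Rik* reached 26819 and 27589, *Ms4a5* (a membrane-spanning 4A gene) 4228 and 4446, *Atp6v1c2* (a subunit of the vacuolar proton pump) 2364 and 2655 and *Adarb2* (of the RNA-editing deaminase family) 108 and 133. *Atp6v1c1*, the common form of the pump subunit, stayed between 1836 and 2166.

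The non-coding RNA *Gm37223* reached 1659 and 1899 normalized counts in the high pair, *AU022754* 218 and 342, *Gm35439* 53.8 and 78.9 and *Gm13874* 68.3 and 62.6. The pseudogene *Cbx3-ps8* reached 444 and 521. Its reads could also derive from near-identical copies, and its value is uncertain for that reason. *AU022754* had the highest ratio of penk+/+ replicate 4 to penk-/- replicate 3 (1.57), followed by *Gm35439* (1.47) and *Tcaf3* (1.24). Among the lowest were *Apof* (0.874) and *Tfap2a* (0.883). Of the 28 genes, 20 were higher in penk+/+ replicate 4 and 8 in penk-/- replicate 3.

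**Figure D2:**
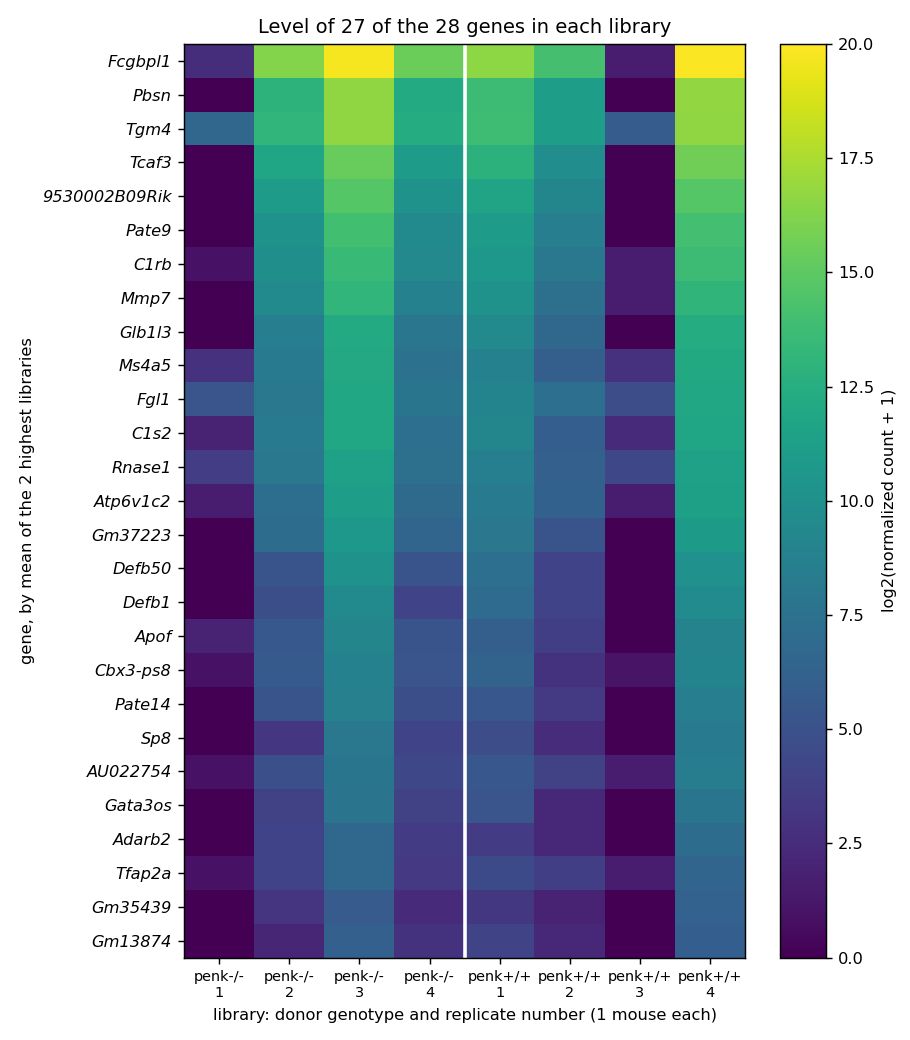
Levels of 27 of the 28 genes (rows, by their mean in the 2 highest libraries) in each of the 8 libraries (columns, penk-/- left and penk+/+ right of the white line), coloured by log2(normalized count + 1). Columns 3 and 8 (penk-/- replicate 3 and penk+/+ replicate 4) are the brightest in all 27 rows, and 14 of the rows are at 0 in both dark columns.

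Both libraries of the high pair were above the other 6 for all 28 genes, and the lower of them exceeded the highest of the others by 3.87 times (*Gm13874*) to 10.5 times (*Sp8*). In the libraries with *Pbsn* reads, 18 of the 28 genes, *Pbsn* included, had exactly the order of *Pbsn*: penk+/+ replicate 4, penk-/- replicate 3, penk+/+ replicate 1, penk-/- replicate 2, penk-/- replicate 4 and penk+/+ replicate 2. The penk+/+ replicate 1 library ranked 3 for 27 genes, and penk+/+ replicate 2 was the lowest of the 6 for 26. In the low pair, 14 genes had no read in either library, 7 had 1 to 3 reads over both and 7 had more, led by *Tgm4* (146 reads), *Fgl1* (63) and *Rnase1* (30).

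Most of the genes stayed within a narrow range of proportions to *Pbsn*, which their choice by r with *Pbsn* in the same libraries favoured. In the 6 libraries with *Pbsn* reads, *Pate9* was at 14.6 to 16.3 normalized counts per 100 of *Pbsn*, and *9530002B09Rik* at 23.8 to 27.5. *Fcgbpl1* was at 741 to 1025 per 100, and *Tgm4* at 92.9 to 122, although *Pbsn* itself ranged from 2398 to 111024 in these libraries. The highest proportion of a gene was at most 2 times its lowest for 19 of the 28 genes, *Pbsn* included, and over 3 times for 4, namely *Tfap2a* (6.42 times), *Gm13874* (3.53), *Adarb2* (3.10) and *Sp8* (3.07). These 4 were among the 7 genes with the fewest counts, with 8.84 normalized counts or fewer in their lowest library of the 6. The 5 genes most alike to *Pbsn* over the 8 libraries were *Tcaf3* (r = 0.9992), *Fcgbpl1* (r = 0.9989), *9530002B09Rik* (r = 0.9989), *Pate9* (r = 0.9982) and *Glb1l3* (r = 0.9924). These values describe libraries that fall into 3 separate levels and carry no test.

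**Figure D3:**
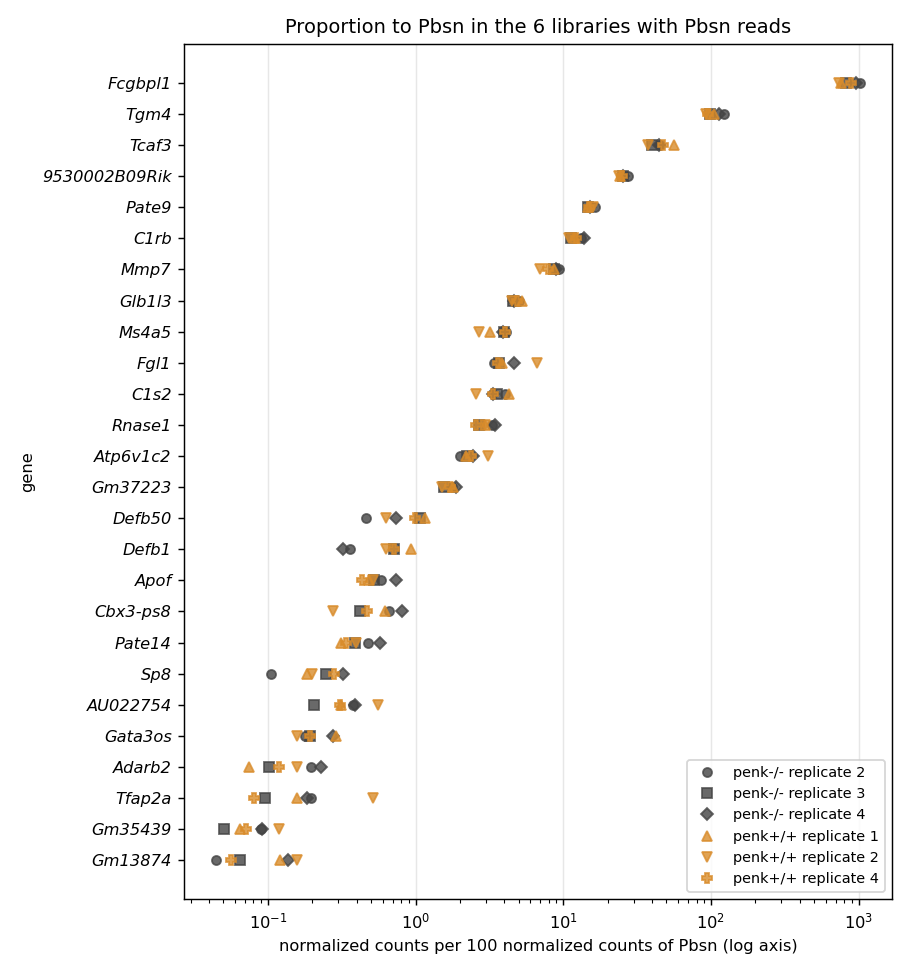
Normalized counts of the genes shown per 100 normalized counts of *Pbsn* (log axis) in the 6 libraries with *Pbsn* reads, grey for penk-/- and orange for penk+/+. The 6 marks of an abundant gene nearly coincide (*Pate9*, 14.6 to 16.3), and those of the least abundant genes spread over up to 6.42 times (*Tfap2a*).

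Together the 28 genes made up 3.29% of the normalized counts of penk-/- replicate 3 (95% exact binomial interval 3.289 to 3.299%) and 3.29% of those of penk+/+ replicate 4 (3.283 to 3.293%). The share was 0.355% in penk+/+ replicate 1, 0.28% in penk-/- replicate 2, 0.165% in penk-/- replicate 4 and 0.0664% in penk+/+ replicate 2. In penk-/- replicate 1 it was 0.000417% (165 reads, 0.000355 to 0.000485%), and in penk+/+ replicate 3 0.000324% (121 reads, 0.000269 to 0.000387%). The intervals cover counting error only. *Fcgbpl1* made up 68.0 to 73.6% of the counts of the genes in the 6 libraries with *Pbsn* reads. In such bulk samples, fewer cells of a type and less RNA per cell cannot be told apart. The high pair was also the deepest sequenced, with 50.7 M and 48.0 M reads against 33.1 M to 40.4 M in the other libraries. The part of depth in the result was not tested, and the values are divided by size factors.

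The genes lay on 15 chromosomes, with 6 on chromosome 9. Some were close neighbours. *Mmp7* and *Cbx3-ps8* were 23.6 kb apart, *Defb1* and *Defb50* 28.4 kb, *C1rb* and *C1s2* 43.5 kb, and *Pate9* and *Pate14* 93.8 kb. The other neighbours on a chromosome were 9671 kb or farther apart. A number of genes overlapped another annotated gene on the opposite strand. *Tgm4* overlapped *Zdhhc3*, which averaged 5577 normalized counts in the high pair and ranged from 4176 to 4928 elsewhere, and *Atp6v1c2* overlapped *Pdia6*, a protein disulfide isomerase gene, at 11749.7 against 5577 to 6630.2. *AU022754* overlapped *Wnt7b* (63.9 against 1.01 to 16.03).

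The label of accessory gland tissue was set against marker lists, which were chosen with earlier results of these data known. Of 7 prostate secretory genes tested, *Pbsn*, *Tgm4*, *Apof* and *Defb50* are among the 28 and were high in the high pair by choice. Of the other 3, 2 were over 2-fold higher in the high pair than in the other 6 libraries. Over all 19127 genes tested, the median log2 ratio was -0.02 and 2.24% were over 2-fold higher. *Msmb*, which codes for the secreted microseminoprotein, had 172 and 146 normalized counts in the high pair and 0 to 31.1 elsewhere (r = 0.842), and *Azgp1*, a zinc-binding glycoprotein gene, 3768 and 3921 against 39.9 to 432 (r = 0.854). Their r was below 0.9 and they are not among the 28. *Spink1*, a trypsin inhibitor gene that the intestine also expresses, was at 7372 and 11203 against 9059.8 to 15461. The list of seminal vesicle secretory genes could hardly be examined, since 1 of its 14 symbols was found among the gene names of the deposited values. This was *Ceacam10* (1734 and 2757 against 1478 to 2256). The other 13 are not analysed here. Of 13 symbols of epididymis and vas deferens, 6 were found and 4 were tested. Of these 4 genes, 0 were over 2-fold higher, and the rest of that list was not examined. The genes are therefore called here by *Pbsn* and not by a tissue.

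Prostate basal cell genes moved with the high pair, though less closely. Of 7 tested, 4 were over 2-fold higher, namely *Krt5* (199.9 and 173 against 6.13 to 51.0), *Trp63* (89.4 and 86.6 against 1.01 to 9.96), *Krt15* (297 and 283 against 32.3 to 107.03) and *Col17a1* (82.1 and 73.7 against 11.1 to 24.3). *Krt14*, *Krt17* and *Dst* were not. Of 16 genes of androgen response and prostate identity tested, 14 were within 2-fold, and the colon also expresses these. *Hoxb13* for example had 11777 and 14608 against 12164 to 14578. Of 6 urethral and urothelial genes tested, *Upk1b* (1193 and 1286 against 46.6 to 243) and *Krt4* (10.2 and 36.0 against 1.01 to 16.2) were over 2-fold higher. *Upk2* had 4.36 and 6.00 against 0 to 1.14, and *Upk1a*, *Upk3b*, *Ly6d* and *Krt7* were not over 2-fold higher.

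Markers of fat were also higher in the high pair, and most so in penk-/- replicate 3. All 8 adipose genes tested were over 2-fold higher in the mean of the high pair than in that of the other 6 libraries (median log2 ratio 1.90). Their summed level was 9928 to 21292 in the high pair and 1699 to 6886 in the other 6 libraries. Their r with *Pbsn* ran from 0.35 (*Plin1*) to 0.53 (*Cidec*). *Adipoq*, which codes for adiponectin, had 1210 and 516 normalized counts in the high pair and 83.7 to 401 elsewhere. In the low pair *Adipoq* was at 299 and 147 and *Lep*, the leptin gene, at 50.5 and 26.6. *Lep* had 237 in penk-/- replicate 3 but 66.0 in penk+/+ replicate 4, below the 118 of penk-/- replicate 2. The part of the fat markers in the pattern of the 28 genes was not tested. The summed level of 12 colon epithelium genes was 395697 and 571773 in the high pair and 491157 to 640719.6 in the other libraries, and 0 of them differed over 2-fold. For 8 smooth muscle genes the sums were 177204 and 226314 against 150093 to 255827. Of 5 skeletal muscle genes, 4 squamous skin and anal epithelium genes, 2 pancreas acinar genes and 1 testis gene tested, 0 were over 2-fold higher or lower. These lists held 8, 10, 10 and 7 symbols in that order, so that part of each was not tested. *Acrv1*, a gene of the sperm acrosome whose mean was below 10, had 24.0 and 28.3 normalized counts in the high pair and 0 to 3.43 elsewhere.

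**Figure D4:**
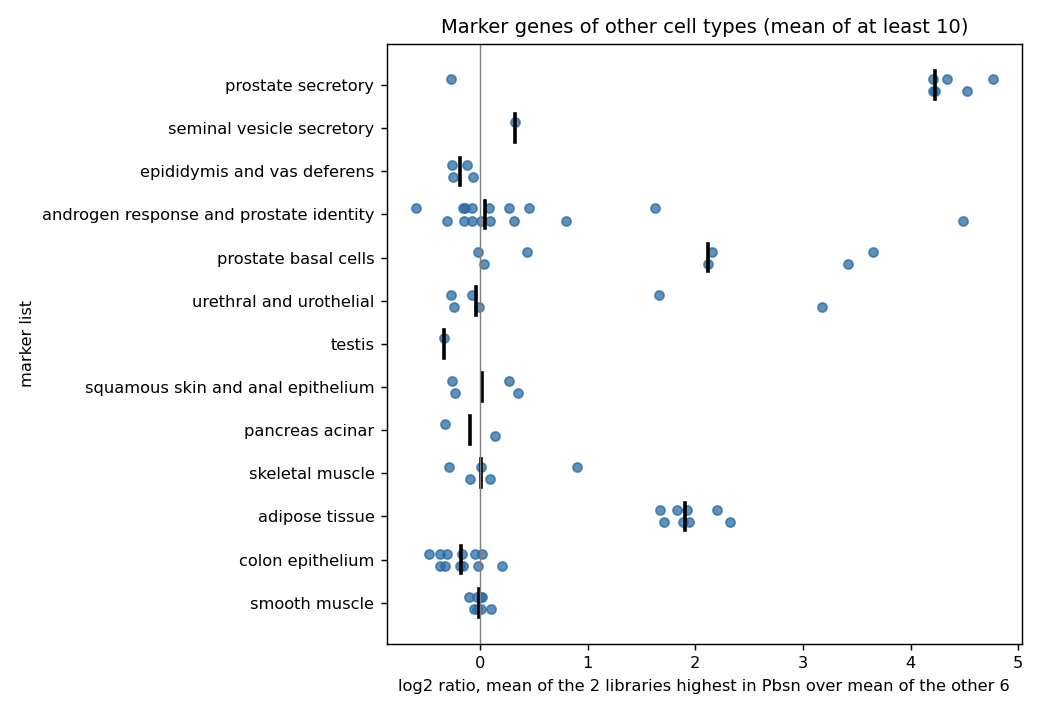
Log2 ratio of the mean of the 2 libraries highest in *Pbsn* over the mean of the other 6, on normalized count + 1, for each marker gene with a mean of at least 10 (points, by list) and the median of each list (bars). Prostate secretory (4 of 7 genes high by choice), prostate basal and adipose lists have medians of 4.23, 2.12 and 1.90, and the medians of the other lists lie between -0.33 and 0.32.

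The values next to each limit of the rule were as follows. Just inside r were *Sp8* (0.907), *Fgl1* (0.908) and *Gm35439* (0.91), and just outside were *Krt4* (0.895), ENSMUSG00000100502 (0.893) and *Gata3* (0.886). A total of 94 genes met the ratio but not r. Among them were *Egf* (r = 0.81, 4233 and 4576 normalized counts in the high pair against 174 to 724) and *Derl3* (r = 0.84, 861 and 711 against 29.6 to 177), a growth factor gene and a gene of endoplasmic reticulum degradation, which the rule names. The ratio left a wide gap. Its lowest values inside were 37.6 (*Tfap2a*), 65.5 (*Gm13874*) and 66.3 (*Gm35439*), and its highest value among the 15 genes that met r only was 2.12 (*2610029K11Rik*). The lowest means inside were those of *Gm35439* (19.4), *Gm13874* (20.1) and *Tfap2a* (31.3), and 0 genes met r and the ratio with a mean below 10.

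The genotype groups overlapped in these genes. The mean of *Pbsn* was 29525 ± 50853 normalized counts over the penk-/- mice and 31712 ± 53197 over the penk+/+ mice (SD, n = 4 and 4), and the groups overlapped. On log2(normalized count + 1) the difference was 0.03 (standard error 4.10, 95% interval -9.18 to 9.24, adjusted p = 0.999 with limma), and the exact permutation test over the 70 assignments of 4 of 8 mice gave a two-sided p = 1, where the smallest possible is 0.0286. With limma's moderated test and Benjamini-Hochberg adjustment over the 19127 genes, 0 of the 28 genes had an adjusted p below 0.05, against 0.0% of all genes tested. At an unadjusted p below 0.05 it was 0 of 28, against 9.63% (1842) of all genes tested. Since each gene was chosen to follow *Pbsn* over pairs balanced by genotype, these counts were largely fixed by the choice and nothing is read from them. No count test was run.

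The log2 fold changes of the 28 genes ran from -0.55 to 0.78 with a median of 0.003, and 15 were above and 13 below 0. Over all genes tested the median was 0.005. The smallest p-values belonged to *Apof*, *Tfap2a* and *Defb1*. The mean of *Apof* was 159 ± 263 normalized counts over the penk-/- mice and 140.2 ± 231 over the penk+/+ mice (SD, n = 4 and 4, log2 fold change 0.78, standard error 1.90, adjusted p = 0.93 with limma). The log2 fold change was -0.34 (standard error 1.25) for *Tfap2a* and -0.55 (standard error 2.28) for *Defb1*. The standard errors of the 28 genes lay between 1.25 and 4.37, against a median of 0.137 over all genes tested. With a 95% interval of -9.18 to 9.24 for *Pbsn*, these data do not show that the genotypes are alike in these genes. The interval left by the spread between mice is wide in either direction.

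**Figure D5:**
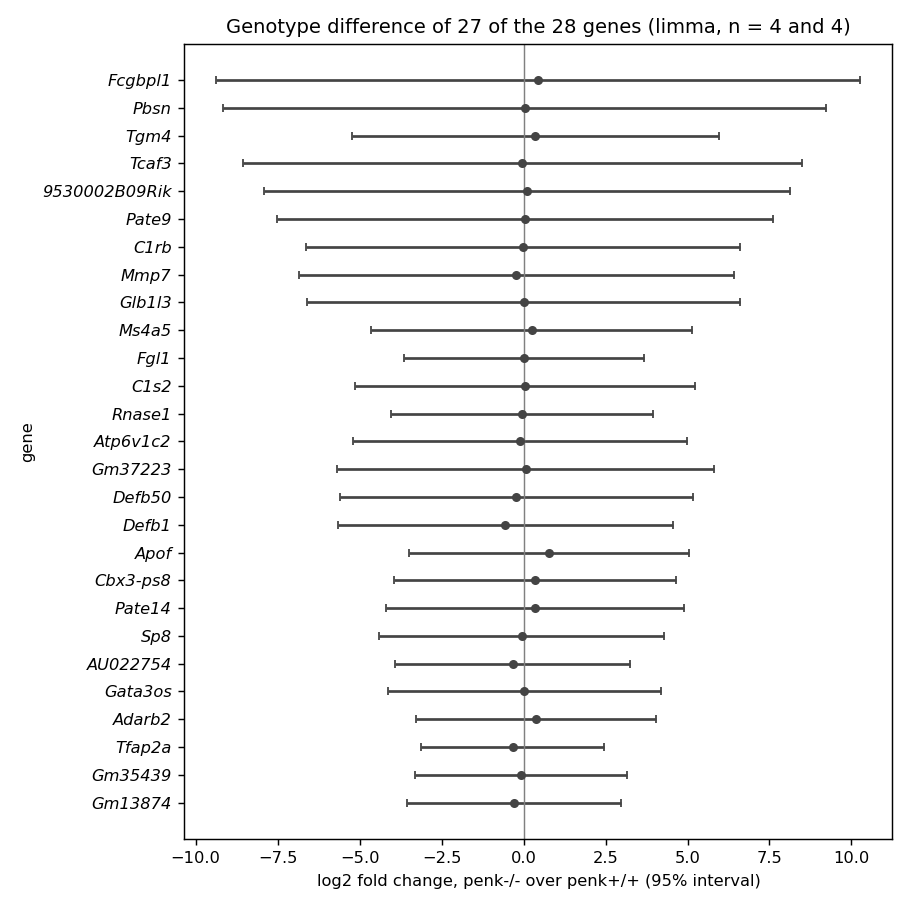
Log2 fold change of penk-/- over penk+/+ chimeras (points) with its 95% interval (bars) for 27 of the 28 genes, from limma on log2(normalized count + 1) with 4 mice in each group. All 27 intervals include 0, and the points lie between -0.55 and 0.78.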

How the data were processed

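Per the submitters' processing notes, the authors checked the reads with FastQC, used STAR 2.7.8a to align and count them on GRCm39, and compared the groups with DESeq2 1.30.0. The deposited values are a signal in normalized counts, which the authors obtained by dividing the counts of a library by its size factor. When the smallest value of a library was taken as 1 read, 100% of its values were whole reads (within 0.01), with sums of 33.1 M to 50.7 M. Gene names, exons and starts were taken from GENCODE M39 (25776 of 26008 identifiers matched), and promoter windows from GRCm39.

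Log2(value + 1) of genes with a mean of at least 10 was compared between genotypes with limma 3.58.1 in R 4.3.3 (moderated test with trend, two-sided, Benjamini-Hochberg adjustment). The test was tested on simulated data. Each library is 1 mouse. Tables were made with Python 3.11.15. Alternatives were other pseudocounts, filters, limits of the rule, a replicate block, *Pbsn* as a covariate and each replicate left out.

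The 28 genes and the marker lists were chosen with earlier results of these data known. Named were *Pbsn*, the 25 genes with the highest mean in the high pair, those in a marker list, the 5 most alike to *Pbsn*, the 3 on either side of each limit, and the 3 with the smallest p and the highest and lowest ratio within the high pair. Relatives, overlapping genes, *Adarb2* and the promoters shown were picked after values were seen. Of the 28 genes, 1 is counted but not reported here by name or in the figures, and some genes of the lists and limits are not reported either. Counts at 0 were set against a floor of 3 reads.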

Additional observations from a re-analysis of the deposited data

Results flagged for a closer look

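The share of the library's normalized counts that fell on the 28 genes was 3.29% in penk-/- replicate 3, against 0.000417, 0.165 and 0.28% in the other penk-/- chimeras, and 3.29% in penk+/+ replicate 4, against 0.000324, 0.0664 and 0.355% in the other penk+/+ chimeras. In each genotype the gap to the next library was 0.915 and 0.892 of the range of the group, above the tabulated limit of Dixon's test for 4 samples. The genes were chosen with these libraries as the high pair, so that the gap is a description. Of 58 groups of 4 libraries examined, 2 had such a library. All 58 rest on the same chosen genes, so that the rate of about 1 in 20 that holds for independent groups does not apply to them. On log2(normalized count + 1), 0 of the 28 genes had one in either genotype.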

How the results depend on the processing

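Under the alternatives run, 0 of the 28 genes differed between the genotypes at an adjusted p below 0.05. Over all genes the count with limma was 0, apart from 1 (*Duox2*) with the replicate number as a block and 6 without penk-/- replicate 1 (range 0 to 6 with 1 replicate left out). The paper itself reports a small number of genes that differed between the groups. It used DESeq2, with limits on fold change and false discovery rate unlike those used here. The labels give a replicate number and state no pairing of the mice. Deviations of same-numbered mice correlated at 0.145, -0.04, -0.32 and -0.16 for numbers 1 to 4. With 1 value per number, this cannot settle whether the numbers pair the mice. With the replicate block the *Pbsn* log2 fold change was 0.03 (standard error 4.37). With each replicate left out in turn, the log2 fold change ranged from -3.45 to 3.51 for *Pbsn*, from -3.37 to 4.09 for *Fcgbpl1*, from -1.66 to 2.24 for *Tgm4*, from -0.78 to 2.20 for *Apof*, from -1.31 to 0.58 for *Tfap2a* and from -2.27 to 0.98 for *Defb1*. The direction thus turned with the mouse left out. The extremes for *Pbsn* came without the mice in which it was 0, penk+/+ replicate 3 (-3.45) and penk-/- replicate 1 (3.51). Without both libraries highest in *Pbsn* it was 0.06.

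The rule found 18 genes with a pseudocount of 8, 63 at an r of at least 0.8, 15 at an r of at least 0.95 and 81 with Spearman's rho, and 23 to 36 with 1 replicate left out. The largest and median shares of a library were 3.35 and 0.228% with the genes at an r of at least 0.8, 0.57 and 0.0358% for *Pbsn*, *Tgm4* and *Msmb*, and 0.949 and 0.0593% without the most abundant gene. The other alternatives kept the count of genes within 1.5 times. The planned tests of counts with edgeR and DESeq2 were not run. The check of units set for them did not accept penk-/- replicate 1, where 1 read was worth 1.01 normalized counts. The recovered reads are used here for depth, for numbers of reads and for the binomial intervals, and not for a genotype test. The spread between mice limits the genotype comparison, and counts near 1 read limit the low pair.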
